A study of Mus musculus with 33 samples.

Results

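Prdm1, Irf4, Bach2, Ell2 and Cd38 were taken here as a set of genes around the switch between the B cell and the plasma cell state. Their RNA was followed in CH12 cells, a mouse B lymphoma line, with and without the chromatin reader ZMYND8. A gene was measured as the sum of the estimated counts of all numbered genomic regions that lie wholly inside its RefSeq span in GRCm38 and inside no other gene. By this rule the 5 genes are 5 of 10750 gene values, and 36 of the 49745 regions in the deposited tables belong to them. All 5 passed the filter on low counts, which left 4510 gene values for the tests. A gene value describes RNA from between 5.0% of the span (Prdm1) and 12.0% of the span (Bach2). Exon, intron and strand of these counts are unknown, so the values are not levels of the mature mRNA.

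The libraries come from 4 lines, named WT, WT clone, ZMYND8 KO1 clone and ZMYND8 KO2 clone in the labels. WT is not called a clone there, the WT clone is a clone without the knockout, and KO1 and KO2 are each 1 clone lacking ZMYND8. The position of the edit and the way the clones were made are not given in the sources used. Cultures of each line were kept for 48 h, either unactivated or activated by a stimulus that the labels do not name, and 3 cultures per line and state are called biological repeats. These are 24 libraries of ribosome-depleted total RNA in 8 groups of 3. ChIP-seq and GRO-seq samples, 9 in all, were not analysed here. Nothing further says how separate the 3 cultures of a line were, so the p-values measure the spread between cultures of these lines and not the spread between independent clones. Levels are given in CPM, the counts scaled to a common library size by depth, as mean ± SD, with n = 3 for a line and n = 6 for the 2 lines of a genotype together.

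Total estimated counts per library ranged from 28.99 to 34.07 M counts, of which regions took 3.78% to 5.48%. Over transcripts above 2 CPM, 22 libraries correlated with the others of their group at a mean r of 0.912 to 0.956. Unactivated WT culture 3 (0.895) and unactivated WT clone culture 2 (0.882) stood apart, and their effect is given beside the unactivated results that they move. The B cell markers with regions (Cd79a, Cd22, Pax5, Blk and Ebf1, 5 of 10 listed) summed to between 16.7 and 62.1 CPM. Those of T cells (2 of 8, Cd5 and Thy1) summed to 0.137 to 0.534 CPM, and those of plasma cells (3 of 6, Sdc1, Tnfrsf17 and the member Prdm1) to 0.243 to 1.33 CPM. The myeloid markers (3 of 7, Csf1r, Itgam and Cybb) summed to 2.77 to 4.00 CPM in unactivated WT and 2.91 to 3.53 CPM in unactivated KO libraries, and to 3.21 to 5.12 and 4.79 to 6.34 CPM after activation. Of the fibroblast markers (2 of 4), Col1a1 was at 0 in every library, and Pdgfrb ranged from 0.0368 to 0.43 CPM in unactivated WT and 0.102 to 0.219 CPM in unactivated KO libraries, and from 0.742 to 1.66 and 0.528 to 0.986 CPM after activation. The B cell sum ranged from 32.3 to 46.4 CPM in unactivated KO libraries against 16.7 to 42.2 CPM in unactivated WT libraries, and from 45.4 to 62.1 against 26.0 to 46.5 CPM after activation. The part of these marker sums in the results below was not tested. In these bulk samples fewer cells of a kind and less RNA per cell cannot be told apart. Region RNA of Zmynd8 itself was 1.90 ± 0.395 CPM in unactivated KO libraries against 1.53 ± 0.256 CPM in WT libraries (edgeR adjusted p = 0.335), and 3.47 ± 0.671 against 2.43 ± 0.439 CPM after activation (edgeR adjusted p = 0.0418). As the edited position is unknown, these regions do not check the labels.

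In B cells, BACH2 is a repressor that binds DNA with small MAF proteins and holds back Prdm1, and PAX5, EBF1 and ETS1 help to keep the B cell state. When a B cell becomes a plasma cell, IRF4 accumulates and Prdm1 is switched on, and its product Blimp-1 represses genes of the B cell program. ELL2 is an elongation factor of RNA polymerase II that favours the secreted form of immunoglobulin heavy chain mRNA. CD38 is a surface enzyme that converts NAD to cyclic ADP-ribose.

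The promoters of the 3 transcription factors are shown first, as background to the changes in RNA, which do not rest on them. Each is the 250 bases before the RefSeq start site used here for that gene in GRCm38.p6, 5′ to 3′ on its strand. The RefSeq spans of Bach2 and Prdm1 reach farther upstream than these sites, to base 32238413 of chromosome 4 and base 44528558 of chromosome 10. Sequence at those upstream ends was not searched. Capitals mark motif matches found by a search on both strands.

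Prdm1, chr10:44458749-44458998, minus strand: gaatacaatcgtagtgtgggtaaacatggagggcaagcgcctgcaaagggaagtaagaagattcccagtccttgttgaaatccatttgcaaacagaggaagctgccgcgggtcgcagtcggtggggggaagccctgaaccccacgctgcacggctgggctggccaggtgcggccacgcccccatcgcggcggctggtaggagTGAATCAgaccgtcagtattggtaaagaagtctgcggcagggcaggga

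Irf4, chr13:30748983-30749232, plus strand: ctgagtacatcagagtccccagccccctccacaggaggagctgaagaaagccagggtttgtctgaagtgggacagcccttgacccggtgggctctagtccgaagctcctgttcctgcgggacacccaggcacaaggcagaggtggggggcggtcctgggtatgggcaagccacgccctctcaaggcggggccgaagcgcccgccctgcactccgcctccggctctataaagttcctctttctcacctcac

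Bach2, chr4:32417185-32417434, plus strand: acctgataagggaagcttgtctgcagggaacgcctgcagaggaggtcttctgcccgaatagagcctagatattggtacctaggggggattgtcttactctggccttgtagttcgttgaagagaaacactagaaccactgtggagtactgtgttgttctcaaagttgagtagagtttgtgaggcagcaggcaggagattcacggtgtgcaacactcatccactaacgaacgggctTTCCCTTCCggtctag

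Prdm1 held the AP-1 motif TGANTCA, a palindrome read on both strands, whose first base lies 48 bases before the start. The Bach2 window held the ETS-IRF composite GGAANNGAA on the opposite strand, 16 bases before the start, so that the capitals show its complement. Among 32851 promoters of the RefSeq table, from 250 bases before to 50 after the start, 7.81% held TGANTCA and 8.24% held GGAANNGAA. Cd38 also held GGAANNGAA, 42 bases before its start. The IRF repeat GAAANNGAA (8.56% of promoters), the BACH2-MAF form GCTGANTCA (1.19%), the Blimp-1 form AGTGAAAG (1.32%) and the NF-kB form GGGANTTTC (1.11%) were in none of the 5 windows. No match says only that these letters are not there.

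The data hold 2 comparisons for each gene: the KO lines against the WT lines within a state, and activated against unactivated cultures within a genotype. In the unactivated state Prdm1 and Bach2 were higher in the KO lines, 2 of 5 genes against 3.46% of all gene values called higher. After activation Prdm1, Irf4 and Bach2 were higher in the KO lines, 3 of 5 against 6.34%. Against WT alone, without the WT clone, 1 of 5 was called unactivated and 0 of 5 activated. The share of all gene values called against WT alone was not computed, so this loss of calls cannot be set against that of other genes. The 5 genes were chosen with earlier results of these data known. The median log2 change of the 5 genes was 0.49 unactivated and 0.53 activated, where the medians over all gene values were −0.03 and 0.07. Ell2 and Cd38 also had positive log2 changes in both states, but neither passed the test. Activation raised Irf4 and Bach2 and lowered Prdm1 in the WT lines and in the KO lines alike. The shares of all gene values called higher and lower were 16.4% and 5.41% for activation in the WT lines, and 24.1% and 4.24% in the KO lines. Gene values were called when the adjusted p of edgeR's quasi-likelihood test over the 4510 values was under 0.05.

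**Figure D1:**
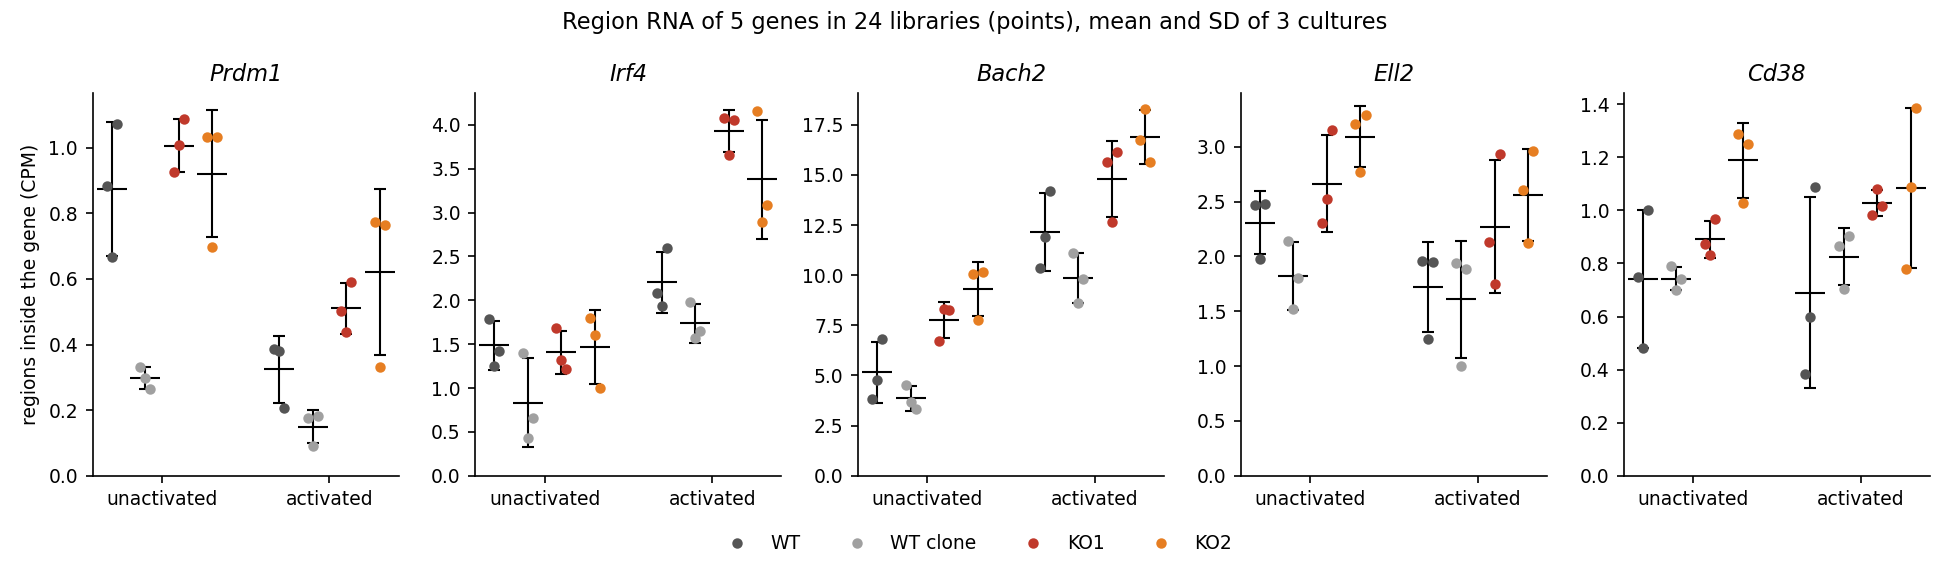
Region RNA of the 5 genes in CPM (vertical axis, from 0) by line and state, with a point for each library and the mean and SD of 3 cultures as black marks. Bach2 and Irf4 sit higher and Prdm1 lower in the activated than in the unactivated cultures of each line, by their means, and the WT clone has the lowest Prdm1 group of each state.

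Scaling affects the activation values. With library sizes taken from the gene values, or with DESeq2, the median of all gene values moved by −0.21 and −0.20 for activation in the WT lines, and by −0.30 and −0.31 in the KO lines. The share of calls that were higher went from 75.2% to 50.6% and 52.7% in the WT lines, and from 85.0% to 54.8% and 54.5% in the KO lines. For KO against WT after activation that share went from 73.1% to 62.0% and 61.3%. The directions and calls of Prdm1, Irf4 and Bach2 given above held under both scalings, with log2 activation changes of −1.39 and −1.41 (Prdm1), 0.58 and 0.59 (Irf4), and 1.09 and 1.09 (Bach2) in the WT lines. In the KO lines they were −1.08 and −1.10, 1.04 and 1.03, and 0.59 and 0.58.

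Per kilobase of measured region, Irf4 had the highest mean level of the 5 genes in both states, with 0.682 ± 0.302 CPM per kb in unactivated WT libraries and 2.15 ± 0.321 CPM per kb in activated KO libraries. Ell2 followed in unactivated WT libraries with 0.400 ± 0.0730 CPM per kb. Cd38 (0.154 ± 0.0345), Prdm1 (0.128 ± 0.0747) and Bach2 (0.108 ± 0.0303 CPM per kb) came below, and the ranges of mean ± SD of the 3 genes overlapped there. In activated WT libraries Bach2 had reached 0.264 ± 0.0463 CPM per kb while Prdm1 was at 0.0519 ± 0.0262, the lowest level of the 5.

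Prdm1 encodes Blimp-1, the repressor at the centre of the plasma cell program. In unactivated cultures its regions gave 0.882, 0.667 and 1.07 CPM in WT cultures 1 to 3 and 0.333, 0.298 and 0.264 CPM in the WT clone. KO1 had 0.926, 1.01 and 1.09 CPM and KO2 had 1.03, 0.697 and 1.03 CPM. The WT clone thus lay below every other unactivated library, while WT and both KO lines overlapped. In activated cultures the values were 0.385, 0.381 and 0.208 CPM in WT and 0.176, 0.0912 and 0.181 CPM in the WT clone. KO1 then had 0.502, 0.437 and 0.590 CPM and KO2 had 0.772, 0.330 and 0.763 CPM. After activation 5 of 6 KO libraries were above every WT library, and KO2 culture 2 was not.

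Against both WT lines together, Prdm1 was 0.92 ± 0.22 higher on the log2 scale (SE) in unactivated KO cultures (edgeR adjusted p = 0.00758) and 1.32 ± 0.25 higher in activated ones (edgeR adjusted p = 0.000858). Only 1 of 6 unactivated KO libraries was above all WT libraries. Against WT alone the log2 changes were 0.13 (edgeR adjusted p = 0.877) and 0.79 (edgeR adjusted p = 0.151). Against the WT clone alone they were 1.70 (edgeR adjusted p = 0.000566) and 1.85 (edgeR adjusted p = 0.000913). Neither call on Prdm1 was made without the WT clone. With KO2 alone against both WT lines, the unactivated change did not pass (0.85, edgeR adjusted p = 0.0612). With the cultures of each line summed to 1 value, Prdm1 passed in neither state (0.73, edgeR adjusted p = 0.376, and 1.23, edgeR adjusted p = 0.166). Without the libraries that stood apart, the unactivated change was 1.01 (edgeR adjusted p = 0.0105).

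**Figure D2:**
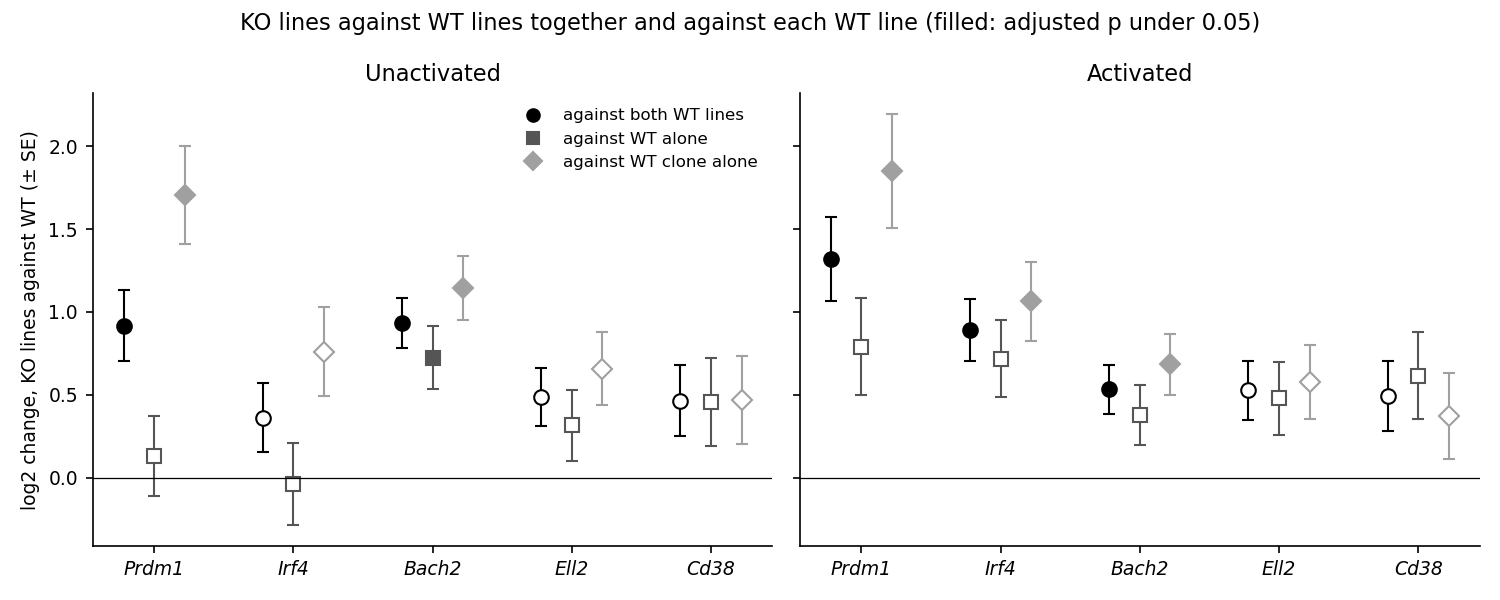
Log2 change with its SE (vertical axis) of each gene in the KO lines against both WT lines together, WT alone and the WT clone alone, unactivated on the left and activated on the right, with filled marks where the adjusted p was under 0.05. Prdm1 is at 0.13 against WT and 1.70 against the WT clone unactivated, while Bach2 is above 0 against either line in both states.

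The 2 WT lines were compared directly. The log2 change of Prdm1 in the unactivated WT clone against unactivated WT was −1.57 ± 0.33 (edgeR adjusted p = 0.0477), with no overlap of the libraries. Of all gene values 0.133% were called in this comparison, and 5.1% had libraries of the WT clone wholly below those of WT. The call was lost when any 1 library other than WT culture 2 was left out, with −1.40 to −1.67 over these fits, and without the libraries that stood apart it was −1.41 (edgeR adjusted p = 0.465). DESeq2 gave −1.53 with no call. After activation the log2 change was −1.06 ± 0.41 (edgeR adjusted p = 0.882), again with no overlap, as 5.72% of all gene values. In the activated state, where 0.0887% of gene values were called, none of the 5 genes was called between the WT lines by edgeR. DESeq2 called none either, but gave Prdm1 no adjusted p there. With edgeR, Prdm1 alone had an unadjusted p under 0.05. Of the other 4 genes, Irf4 unactivated had the lowest p between the WT lines (−0.80 ± 0.30, edgeR adjusted p = 0.696), a value that was −1.39 without WT clone culture 1 and −0.51 without WT clone culture 2. Between KO2 and KO1 none of the 5 genes was called, where 0% of gene values were called unactivated and 0.155% activated. DESeq2 also called none between the KO lines in either state, but gave Prdm1 and Cd38 no adjusted p in the activated state. None of the 5 genes had an unadjusted p under 0.05 with edgeR.

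The measured RNA of Prdm1 comes from 3 regions. The gene spans chr10:44437174-44528558 on the minus strand, and the RefSeq start used here is at base 44458748. The region at chr10:44447964-44450603, centred 9.5 kb after the start, held most counts and was the only one of the 3 to pass the filter. Over the 3 unactivated cultures of a line its counts summed to 60.9 in WT and 25.5 in the WT clone, and to 80.1 in KO1 and 70.2 in KO2. After activation they summed to 18.7 in WT and 13.8 in the WT clone, and to 33.8 in KO1 and 41.5 in KO2. The region was 0.86 ± 0.25 higher in unactivated KO cultures (edgeR adjusted p = 0.0426 over 61074 targets) and 1.17 ± 0.26 higher in activated ones (edgeR adjusted p = 0.00805). Of all regions tested, 3.75% and 5.67% were called higher in these comparisons. The unactivated call was lost in 11 of 12 fits that left out 1 library, against WT alone (0.24), and without both libraries that stood apart (0.84, edgeR adjusted p = 0.110). The activated call was lost in 0 of 12 fits that left out 1 library. It was lost against WT alone (0.97), with KO1 alone (1.00), with lines summed (1.17) and with only the libraries compared (1.17).

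The region at chr10:44453989-44455252, centred 4.1 kb after the start, had 0 counts in all 6 WT clone libraries. Summed over 3 cultures, it had 12 counts in WT, 8 in KO1 and 12 in KO2 unactivated, and 11.8, 12 and 12.0 activated. With the WT clone group set to a floor of 3 counts, the ratios to it were 3.87 in WT, 2.51 in KO1 and 3.71 in KO2 unactivated. After activation these ratios were 3.89, 3.98 and 4.07. The floor allows for counting error in the WT clone only. Counting error in the other lines and the spread between cultures are not in these ratios, so they are not lower bounds. Every other line had counts there in both states, although WT unactivated culture 2 and KO2 activated culture 2 had none. The region at chr10:44444294-44444958, centred 14.1 kb after the start, had at most 8 counts in a library, and the 8 counts of unactivated WT were all in culture 3. Both regions were too low to be tested.

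**Figure D3:**
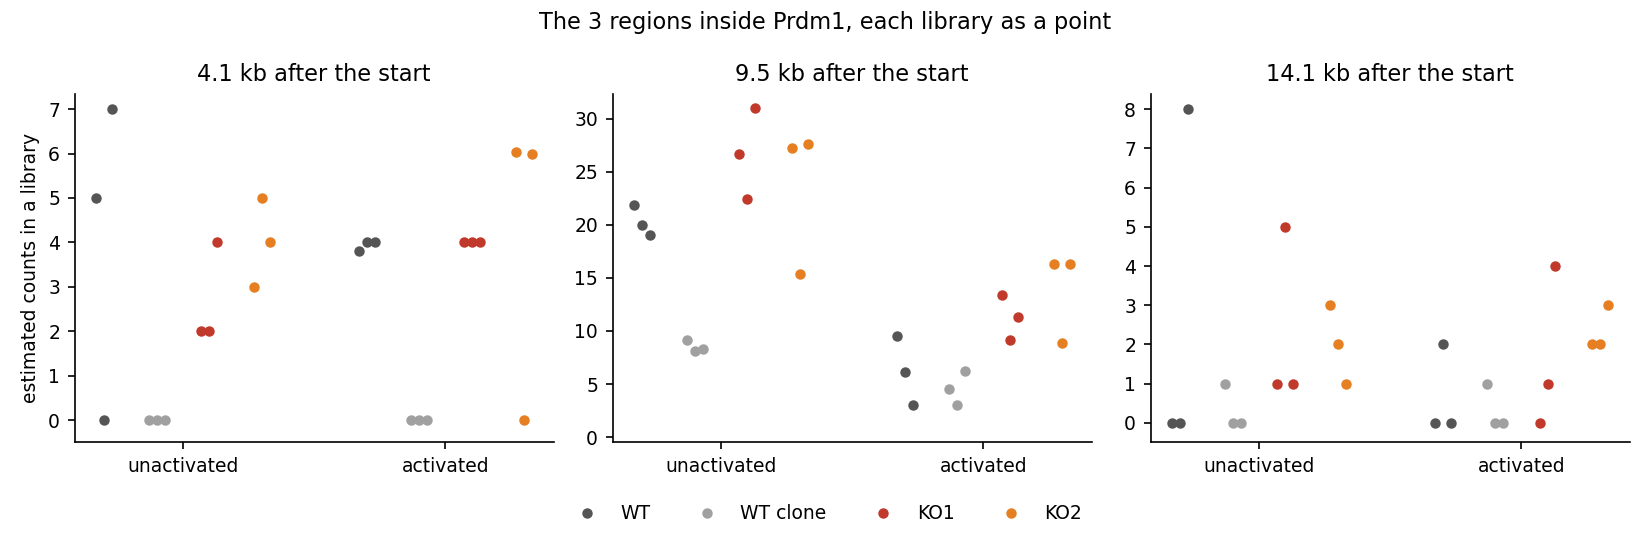
Estimated counts per library (vertical axis) in the 3 regions inside Prdm1, one panel each by distance after the start, with a point for each library by line and state. The region at 4.1 kb is at 0 in every WT clone library, and the region at 9.5 kb holds most counts.

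On activation Prdm1 fell by 1.19 ± 0.27 in the WT lines (edgeR adjusted p = 0.00146) and fell by 0.78 ± 0.21 in the KO lines (edgeR adjusted p = 0.00518), both on the log2 scale. Groups of both genotypes overlapped. Taken line by line, the change was −1.45 in WT (edgeR adjusted p = 0.00247) and −0.996 in KO1 (edgeR adjusted p = 0.02), but −0.93 in the WT clone (edgeR adjusted p = 0.175) and −0.57 in KO2 (edgeR adjusted p = 0.21) did not pass. Summed by line, −1.33 and −0.82 did not pass either (edgeR adjusted p = 0.0609 and 0.145). The region at 9.5 kb fell by 1.38 in the WT lines (edgeR adjusted p = 0.0008) and fell by 1.07 in the KO lines (edgeR adjusted p = 0.00434), where 4.91% and 3.52% of all regions were called lower. The region at 4.1 kb, too low to be tested, had 12 counts over the WT lines and 20 over the KO lines unactivated, and 11.8 and 24.0 activated.

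Irf4, at chr13:30749233-30766981 on the plus strand, encodes a factor needed both for activation of B cells and, at high level, for plasma cells. Unactivated cultures 1 to 3 had 1.79, 1.25 and 1.42 CPM in WT and 1.40, 0.435 and 0.654 CPM in the WT clone. KO1 had 1.68, 1.31 and 1.22 CPM and KO2 had 1.80, 1.61 and 0.999 CPM. These groups overlapped, and the log2 change in the KO lines was 0.36 ± 0.21 (edgeR adjusted p = 0.374), or 0.20 without the libraries that stood apart (edgeR adjusted p = 0.691). After activation WT had 2.09, 1.94 and 2.60 CPM and the WT clone 1.98, 1.57 and 1.66 CPM, where KO1 had 4.07, 3.66 and 4.06 CPM and KO2 had 4.15, 2.90 and 3.09 CPM. All 6 activated KO libraries were above all 6 activated WT libraries, as for 3.68% of gene values. The log2 change was 0.89 ± 0.19 (edgeR adjusted p = 0.00208). It was 1.06 against the WT clone alone (edgeR adjusted p = 0.00547) and 0.72 against WT alone (edgeR adjusted p = 0.081).

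Irf4 rose on activation by 0.81 ± 0.20 in the WT lines (edgeR adjusted p = 0.00413) and by 1.34 ± 0.19 in the KO lines (edgeR adjusted p = 5.81e-06). In the KO lines every activated library was above every unactivated one, as for 13.8% of gene values. In WT alone the change was 0.58 (edgeR adjusted p = 0.202), and without the libraries that stood apart the rise in the WT lines was 0.65 (edgeR adjusted p = 0.0198). The difference between the genotypes was itself tested and was 0.53 ± 0.28 (edgeR adjusted p = 0.503), and 0.23 without unactivated WT clone culture 1 (edgeR adjusted p = 0.829). None of the 5 genes was called in this interaction by edgeR, where 0.554% of gene values were, and none had an unadjusted p under 0.05. DESeq2 called 1, Bach2. Over all gene values 76.0% of the interaction calls were higher, and 64.5% and 64.8% with library sizes from the gene values and with DESeq2.

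The Irf4 value sums 2 regions, centred 5.0 and 12.2 kb after the start. The region at 12.2 kb had 1.33 ± 0.17 CPM in activated WT libraries and 2.57 ± 0.41 CPM in activated KO libraries (log2 change 0.95 ± 0.22, edgeR adjusted p = 0.0102), with no overlap, as for 4.63% of all regions. At 5.0 kb the activated change was 0.75 ± 0.32 (edgeR adjusted p = 0.217). Another region, chr13:30766698-30767435, runs past the annotated end of the gene and is not in the gene value. It had 1.83 ± 0.61 CPM in unactivated WT libraries and 3.41 ± 1.4 CPM in unactivated KO libraries (0.91 ± 0.20, edgeR adjusted p = 0.00717), with KO1 culture 2 the highest at 6.20 CPM. Activated, it had 3.11 ± 0.30 and 5.02 ± 0.71 CPM (0.68 ± 0.20, edgeR adjusted p = 0.0465), with no overlap. With this region added to the sum, Irf4 was called in the unactivated state too (0.73, edgeR adjusted p = 0.00241). The same sum took the rise on activation in the KO lines from 1.34 to 0.84 (edgeR adjusted p = 6.67e-05), and the difference between genotypes from 0.53 to 0.0409 (edgeR adjusted p = 0.978). Without the added region, Irf4 was called in the unactivated state without WT clone culture 1 (0.66, edgeR adjusted p = 0.0454).

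Bach2 encodes the repressor that holds B cells back from the plasma cell state. Unactivated cultures 1 to 3 had 3.85, 4.78 and 6.84 CPM in WT and 4.54, 3.70 and 3.34 CPM in the WT clone. KO1 had 6.74, 8.31 and 8.27 CPM and KO2 had 10.0, 7.78 and 10.2 CPM. Only KO1 culture 1 was not above every WT library, where WT culture 3, a library that stood apart, was the highest. After activation WT had 10.3, 11.9 and 14.2 CPM and the WT clone 11.1, 8.62 and 9.79 CPM, where KO1 had 15.6, 12.7 and 16.1 CPM and KO2 had 16.7, 18.3 and 15.6 CPM. Again 5 of 6 KO libraries were above all WT libraries, and KO1 culture 2 was not.

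In the unactivated KO lines Bach2 was 0.93 ± 0.15 higher on the log2 scale (edgeR adjusted p = 0.00017). The change was 0.72 against WT alone (edgeR adjusted p = 0.0282), 1.14 against the WT clone alone (edgeR adjusted p = 0.000474), 0.80 with KO1 alone (edgeR adjusted p = 0.00893) and 1.07 with KO2 alone (edgeR adjusted p = 0.000382). It was 1.05 without the libraries that stood apart (edgeR adjusted p = 4.00e-05). So each WT line and each KO line taken alone passed the test, unlike Prdm1. In the activated KO lines the change was 0.53 ± 0.15 (edgeR adjusted p = 0.0193). That call was lost against WT alone (0.38, edgeR adjusted p = 0.327), with KO1 alone (0.44, edgeR adjusted p = 0.232) and with lines summed (0.52, edgeR adjusted p = 0.153). It was also lost without WT culture 1 (0.48), WT clone culture 2 (0.49), KO1 culture 1 (0.51), KO1 culture 3 (0.50) or KO2 culture 2 (0.50).

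Bach2 rose on activation by 1.29 ± 0.15 in the WT lines (edgeR adjusted p = 3.16e-07) and by 0.89 ± 0.15 in the KO lines (edgeR adjusted p = 4.06e-05). In both genotypes every activated library was above every unactivated one, as for 7.74% and 13.8% of gene values. Each of the 4 lines passed alone, with rises of 0.93 in KO1, 0.86 in KO2, 1.24 in WT and 1.35 in the WT clone, and the highest edgeR adjusted p, in KO2, was 0.00581. The difference between genotypes was −0.40 ± 0.21 (edgeR adjusted p = 0.5001), and DESeq2 called it at −0.51 (DESeq2 adjusted p = 0.0495).

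Bach2 spans 347697 bases on the plus strand of chromosome 4, from 32238413 to 32586109, and 25 regions lie inside it alone. The annotated start used here is at 32417435, so that regions lie up to 158.6 kb before it and up to 154.9 kb after it but still inside the gene. Of the 25 regions, 12 passed the filter. All 12 had a log2 change above 0 in the unactivated KO lines, from 0.34 to 2.04 with a median of 0.81, and 4 were called, against 3.75% of all regions called higher. After activation 11 of 12 were above 0, with a median of 0.57 and a range from −0.03 to 1.15, and 1 was called, against 5.67%. The libraries did not overlap for 3 of 12 regions unactivated, against 2.82% of all regions, and for 0 of 12 activated, against 4.63%.

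The region at chr4:32421396-32427001, centred 6.8 kb after the start, had the highest mean of the 25. Unactivated it had 1.47, 1.54 and 1.60 CPM in KO1, 2.66, 1.45 and 2.95 CPM in KO2, 0.394, 0.579 and 1.29 CPM in WT and 0.854, 0.995 and 0.699 CPM in the WT clone. All KO libraries were above all WT libraries (1.25 ± 0.23, edgeR adjusted p = 0.00176). After activation it had 4.07 ± 0.78 CPM in the WT lines and 5.26 ± 0.63 CPM in the KO lines, with overlap (0.37 ± 0.22, edgeR adjusted p = 0.472). The region at chr4:32480320-32483404, 64.4 kb after the start, was also among the 3 with the highest mean. Its KO change was called neither unactivated (0.46 ± 0.23, edgeR adjusted p = 0.313) nor activated (0.26 ± 0.23, edgeR adjusted p = 0.706).

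The region at chr4:32376209-32378890, 39.9 kb before the start, had 0.217 ± 0.12 CPM in unactivated WT libraries and 0.514 ± 0.16 CPM in KO libraries (1.40 ± 0.29, edgeR adjusted p = 0.00433). At chr4:32342158-32344215, 74.2 kb before the start, the values were 0.376 ± 0.19 and 0.752 ± 0.21 CPM (1.07 ± 0.28, edgeR adjusted p = 0.023). At chr4:32411271-32415250, 4.2 kb before the start, the log2 change was 2.04 ± 0.56 (edgeR adjusted p = 0.0319) with no overlap, on counts of 8 to 16 in KO libraries and at most 5 in WT libraries. WT clone cultures 1 and 3 had 0 counts there. The region at 74.2 kb lost its call in 4 of 12 fits that left out 1 library, and the one at 4.2 kb in 8 of 12. The value at 4.2 kb was 3.90 without WT clone culture 2, which leaves 0 counts in that line, and 3.91 without both libraries that stood apart (edgeR adjusted p = 0.000718). At 6.8 kb the latter fit gave 1.63 (edgeR adjusted p = 5.02e-05). In activated cultures the region at chr4:32401234-32406610, 13.5 kb before the start, was the one called, with 3.07 ± 0.53 CPM in WT libraries and 4.95 ± 0.91 CPM in KO libraries (0.69 ± 0.15, edgeR adjusted p = 0.00571). That call was lost against WT alone (0.53), with KO1 alone (0.52) and with lines summed (0.68). The regions 158.6 kb (1.05 ± 0.33, edgeR adjusted p = 0.0679) and 4.2 kb before the start (1.15 ± 0.53, edgeR adjusted p = 0.281) were not called there.

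Whether single regions changed otherwise than their gene was tested over 4246 regions with edgeR's diffSpliceDGE, as the log2 change of a region less that of its gene as a whole. In KO against WT no Bach2 region was called in either state, where 1.32% and 1.48% of the regions were. At an unadjusted p under 0.05 edgeR gave 2 unactivated, those 13.5 and 4.2 kb before the start, and 0 activated. Without WT clone culture 2, or without both libraries that stood apart, the region 4.2 kb before the start was called in the unactivated state.

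Activation moved the regions apart, a test added after the values had been seen. The region at chr4:32257601-32259994, 158.6 kb before the start, went from 0.327 ± 0.10 to 0.185 ± 0.11 CPM in the WT lines and from 0.614 ± 0.049 to 0.361 ± 0.16 CPM in the KO lines while the gene rose. Relative to the gene it fell by 2.27 in the WT lines (edgeR adjusted p = 3.53e-06, with 2.21% of regions called) and by 1.76 in the KO lines (edgeR adjusted p = 7.86e-06, with 2.76% called). Both calls held in 12 of 12 fits that left out 1 library. Taken by itself the region was not called on activation, with −0.90 (edgeR adjusted p = 0.0633) and −0.76 (edgeR adjusted p = 0.0989).

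In the WT lines the region 6.8 kb after the start rose above the gene by 0.97 (edgeR adjusted p = 0.00756, in 12 of 12 such fits). It rose above the gene by 0.46 in the KO lines, without a call (edgeR adjusted p = 0.423). By itself it rose by 2.34 in the WT lines (edgeR adjusted p = 8.05e-07) and by 1.46 in the KO lines (edgeR adjusted p = 0.000117). In the KO lines the regions 74.2 kb (−1.36, edgeR adjusted p = 0.000164, 12 of 12 fits) and 39.9 kb (−1.29, edgeR adjusted p = 0.00339, 11 of 12 fits) before the start also fell relative to the gene. Another 3 calls there held in fewer fits: the region 82.0 kb before the start (−1.39, 8 of 12 fits), the one 4.2 kb before it (−1.26, 3 of 12) and the one 13.5 kb before it (0.74, 0 of 12). Uncalled values of these regions in the WT lines were −1.01 (74.2 kb), −0.82 (39.9 kb), −1.60 (82.0 kb), −0.71 (4.2 kb) and 0.04 (13.5 kb). The edgeR adjusted p was 0.061 at 74.2 and at 82.0 kb. Whether the genotypes differ in these values was not tested. By itself the region 13.5 kb before the start rose by 1.40 in the WT lines (edgeR adjusted p = 1.65e-06) and by 1.75 in the KO lines (edgeR adjusted p = 1.15e-07). Regions called higher on activation by themselves were 4 of 12 in each genotype, against 14.3% and 19.6% of all regions. Activated libraries lay wholly above unactivated ones for 2 of 12 in the WT lines, against 7.78%, and for 3 of 12 in the KO lines, against 13.4%.

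**Figure D4:**
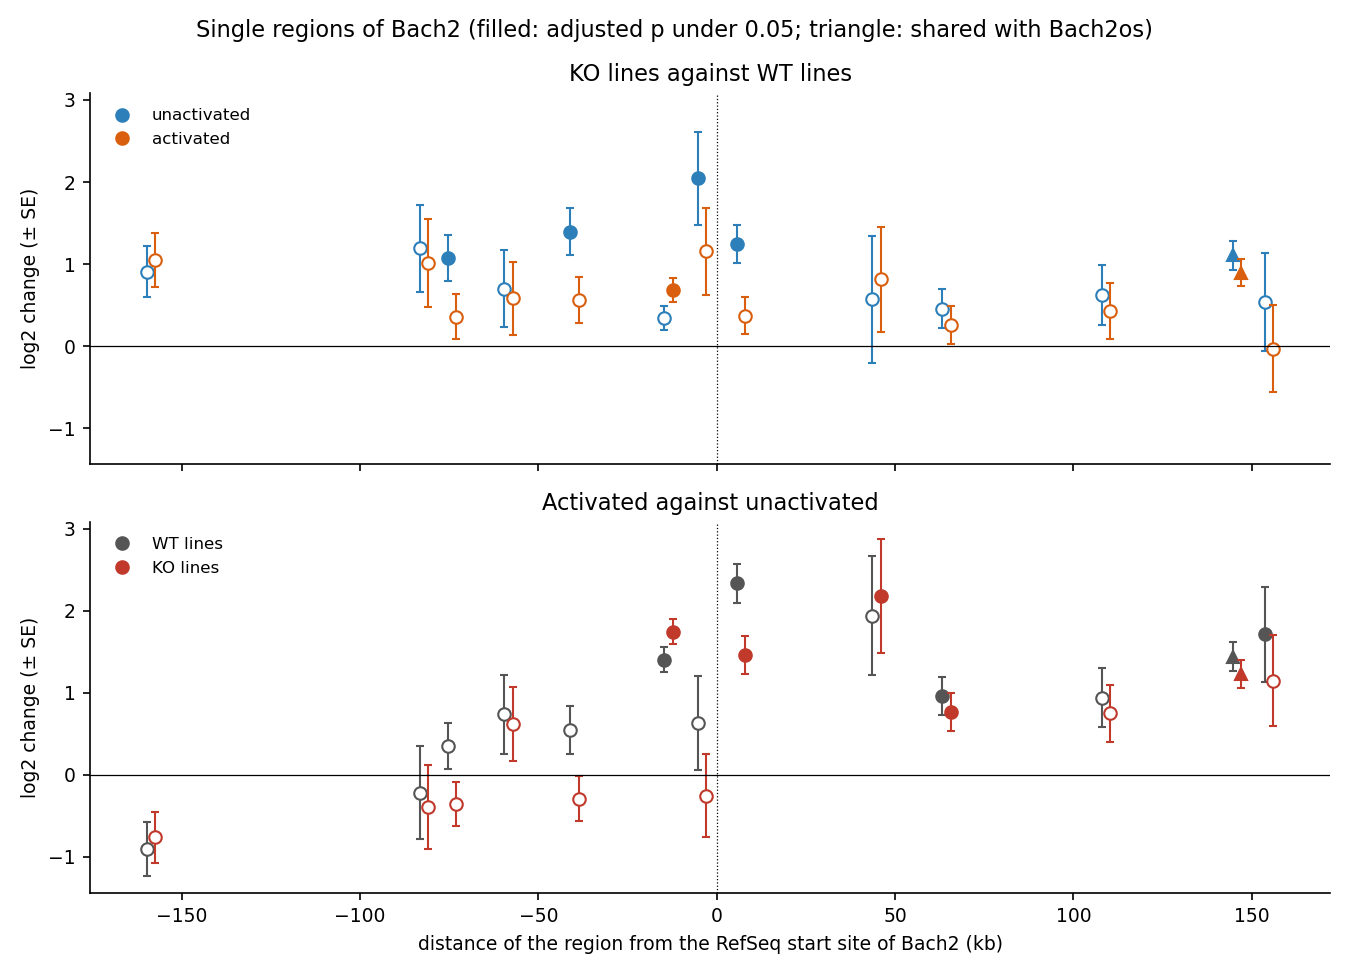
Log2 change with its SE (vertical axis) of single Bach2 regions against their distance from the RefSeq start in kb, with KO against WT in the upper panel and activation in the lower, filled marks where the adjusted p was under 0.05 and a triangle for the region shared with Bach2os. KO changes are above 0 over most of the gene, and the 3 highest activation changes in the KO lines lie between 13.5 kb before and 44.7 kb after the start.

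Split 50 kb to each side of the start, a split made after the values were seen, the 11 regions farther before the start summed to 2.06 times the WT level in unactivated KO libraries, and the activated level was 0.985 times the unactivated in the WT lines and 0.748 times in the KO lines. The 8 regions within 50 kb were at 1.91 times in the unactivated KO lines, and at 3.22 and 2.48 times after activation, with no overlap between states. The 6 regions farther after the start were at 1.58, 2.29 and 1.76 times, also with no overlap. In activated KO libraries the 3 sums, in this order, were at 1.57, 1.47 and 1.21 times the WT level, with overlap. The share of comparable sums without overlap was not computed. A further region, chr4:32561150-32565494, lies 145.9 kb after the start in both Bach2 and the antisense gene Bach2os, and was left out of the gene value because the counts of the 2 genes cannot be told apart. It had 1.51 ± 0.68 CPM in unactivated WT and 3.17 ± 0.15 CPM in unactivated KO libraries (1.11 ± 0.17, edgeR adjusted p = 0.000271). Activated, it had 4.02 ± 0.69 and 7.54 ± 1.3 CPM (0.90 ± 0.17, edgeR adjusted p = 0.00172). Its groups overlapped in none of the 4 comparisons.

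Ell2, the elongation factor gene, lies at chr13:75707484-75772361 on the plus strand. Unactivated means were 2.66 ± 0.441 CPM in KO1, 3.09 ± 0.278 CPM in KO2, 2.31 ± 0.284 CPM in WT and 1.82 ± 0.312 CPM in the WT clone. After activation the means were 2.27 ± 0.608 CPM in KO1 and 2.56 ± 0.422 CPM in KO2, and 1.72 ± 0.408 CPM in WT and 1.61 ± 0.531 CPM in the WT clone. In each state 5 of 6 KO libraries were above all WT libraries, but the log2 changes of 0.49 ± 0.17 (edgeR adjusted p = 0.101) and 0.53 ± 0.18 (edgeR adjusted p = 0.0642) did not pass. With a block for the culture number Ell2 was called in both states (0.49, edgeR adjusted p = 0.0222, and 0.54, edgeR adjusted p = 0.0104), and culture 2 was the lowest of its group for this gene in every group but unactivated KO1. Without KO1 culture 2 the activated change was called (0.61, edgeR adjusted p = 0.0399). On activation Ell2 changed by −0.30 in the WT lines (edgeR adjusted p = 0.261) and −0.25 in the KO lines (edgeR adjusted p = 0.295). DESeq2 called both, at −0.52 (DESeq2 adjusted p = 0.034) and −0.57 (DESeq2 adjusted p = 0.00837), and edgeR with library sizes from the gene values did so too, at −0.52 (edgeR adjusted p = 0.0281) and −0.56 (edgeR adjusted p = 0.0117). Both scalings move the median of all genes down. Of its 2 regions, the one centred 32.0 kb after the start was called in activated KO cultures (1.00 ± 0.28, edgeR adjusted p = 0.0348), and the one at 54.7 kb was not (0.31 ± 0.20, edgeR adjusted p = 0.512).

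Cd38, the gene of the surface enzyme, lies at chr5:43868809-43912374 on the plus strand. It had 0.890 ± 0.0696 CPM in KO1, 1.19 ± 0.141 CPM in KO2, 0.743 ± 0.260 CPM in WT and 0.743 ± 0.0444 CPM in the WT clone unactivated. After activation the means were 1.03 ± 0.0494 CPM in KO1 and 1.08 ± 0.303 CPM in KO2, and 0.689 ± 0.360 CPM in WT and 0.824 ± 0.107 CPM in the WT clone. The log2 changes in the KO lines were 0.46 ± 0.21 (edgeR adjusted p = 0.233) and 0.49 ± 0.21 (edgeR adjusted p = 0.18), with overlap in both states. Without WT culture 3 the activated change was called (0.75, edgeR adjusted p = 0.0214). Activation changed Cd38 by 0.01 ± 0.22 in the WT lines and 0.04 ± 0.20 in the KO lines, and the sign turned with DESeq2 (−0.20 and −0.27). Neither of its 2 tested regions was called in any of the 4 comparisons.

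Neighbouring groups mostly overlapped in the order of levels. For Prdm1 the order ran from unactivated KO1 through KO2 and WT to activated KO2 and KO1, and the first gap came below activated KO1, above activated WT. The second gap lay between the unactivated and the activated WT clone. For Irf4 the 2 activated KO groups came first, with a gap to activated WT, and all later neighbours overlapped. For Bach2 and Ell2 all neighbours overlapped, from activated KO2 (16.9 CPM) down to the unactivated WT clone (3.86 CPM) for Bach2. For Cd38 the one gap was between activated and unactivated KO1.

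The ratio of Prdm1 to Bach2 region CPM within a library sets the region RNA of 2 antagonists side by side, and is not their balance as mRNA or protein. Unactivated it was 0.130 ± 0.0082 in KO1, 0.0979 ± 0.0072 in KO2, 0.175 ± 0.0474 in WT and 0.0777 ± 0.0038 in the WT clone. Activated it was 0.0344 ± 0.0022 in KO1 and 0.0377 ± 0.0170 in KO2, and 0.0280 ± 0.0118 in WT and 0.0150 ± 0.0040 in the WT clone. Every activated library was below every unactivated one, which restates that Bach2 rose and Prdm1 fell on activation. The share of other gene pairs with such a gap was not computed. Both KO lines lay between the 2 WT lines before activation, and their groups overlapped with WT after it.

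Genes whose log2 CPM followed that of a member most closely over the 24 libraries were sought among 368 gene values whose mean reached 5 CPM in 1 or more groups (367 for Bach2). For Prdm1 these were Runx1 (Pearson r = 0.888), Retreg1 (0.876) and Colq (0.849). For Irf4 they were Itsn1 (0.907), Clec2d (0.869) and Rad51b (0.862), and for Bach2 Gnaq (0.938), Rad51b (0.913) and Inpp4b (0.896). The closest to Ell2 and to Cd38 was Prkce, at 0.821 and 0.722. These r values describe 24 libraries that share lines, states and scaling.

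Other genes of the switch were read from lists, each against the shares called given above for higher values, and for lower ones against 3.1% of gene values in unactivated and 2.33% in activated KO cultures. Of 34 genes listed for the plasma cell program, which need not all be higher in plasma cells, 20 were tested. The members Prdm1, Irf4, Ell2 and Cd38 were among them. Other genes of the lists were not tested with single lines. In unactivated KO cultures 1 was called higher (Prdm1) and 2 lower. The lower ones were Eaf2, a partner of ELL proteins, at 0.339 ± 0.0614 CPM against 0.632 ± 0.0708 CPM in WT libraries (−0.89, edgeR adjusted p = 0.00662), and the costimulatory receptor gene Cd28 (−0.93, edgeR adjusted p = 0.0333). In activated KO cultures 4 were higher and 1 lower. Besides Prdm1 and Irf4, these were Zbtb20 (0.92, edgeR adjusted p = 0.000611), a zinc finger factor of plasma cells, and the coactivator gene Pou2af1 (0.61, edgeR adjusted p = 0.0371). The unfolded protein sensor gene Atf6 was lower (−0.60, edgeR adjusted p = 0.0191). The median log2 changes of the list were −0.09 and 0.18, against −0.03 and 0.07 over all gene values. On activation 4 rose and 1 fell in the WT lines, and 6 rose and 1 fell in the KO lines. Prdm1 was the one that fell in both, and the integrin gene Itga4 (1.43 and 1.34) and Ikzf3 (0.81 and 1.58), which encodes Aiolos, rose in both.

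Of 20 factors that hold the B cell state 14 were tested. In unactivated KO cultures Bach2 and Ets1 (8.30 ± 1.32 against 4.80 ± 1.25 CPM, 0.81, edgeR adjusted p = 0.00758) were higher, and Irf8 was lower (0.140 ± 0.0876 against 0.849 ± 0.479 CPM, −2.60, edgeR adjusted p = 0.000188). In activated ones Bach2, Ebf1 (36.2 ± 5.44 against 21.3 ± 6.52 CPM, 0.76, edgeR adjusted p = 0.0181) and Ikzf1 (0.47, edgeR adjusted p = 0.0377) were higher. The medians of this list were −0.06 and 0.18. On activation 6 rose and 2 fell in the WT lines, and 8 rose and 2 fell in the KO lines. The class II transactivator gene Ciita rose by 2.04 and 2.33, and the Oct2 gene Pou2f2 rose by 0.93 and 1.31. Spi1, the gene of PU.1, fell by 1.06 and fell by 0.80, and Ikzf1, the gene of Ikaros, fell by 1.08 and fell by 0.44. No gene of this or the other lists was called in the interaction by edgeR.

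Of 24 partners and co-factors of Blimp-1, BACH2 and IRF4, 12 were tested. In KO cultures 1 was called higher and 1 lower unactivated, and 1 higher and 0 lower activated, with medians of −0.02 and 0.22. On activation 2 rose and 2 fell in the WT lines, and 3 rose and 1 fell in the KO lines. Irf2, a member of the IRF family, was raised in KO cultures of either state, at 2.77 ± 0.366 against 1.44 ± 0.190 CPM unactivated (0.94, edgeR adjusted p = 4.49e-05) and 3.03 ± 0.372 against 1.57 ± 0.145 CPM activated (0.95, edgeR adjusted p = 2.45e-05). Batf3 was lower unactivated (−0.92, edgeR adjusted p = 0.0107). On activation Batf, whose product binds DNA together with IRF4, rose by 0.88 and 1.63, and Batf3 fell by 2.10 and fell by 1.46. Bach1, the relative of Bach2, fell by 0.99 in the WT lines (edgeR adjusted p = 0.00139). The corepressor gene Tle3 rose in both genotypes, by 0.67 and 1.05.

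Of 18 genes of the elongation complex around ELL2 and of 18 genes of NAD and cyclic ADP-ribose metabolism around CD38, 9 each were tested. For the elongation list 0 were higher and 1 lower in unactivated KO cultures, and 0 were called in activated ones (medians 0.19 and 0.25). For the NAD list 1 was higher and 0 lower in each state (medians 0.33 and 0.17). In the first list Eaf2 was the gene called in unactivated KO against WT cultures. On activation Aff3, of the super elongation complex, rose by 0.89 and 1.00, and Eaf1 fell by 0.95 and fell by 0.76. In the second list Bst1, an ecto-enzyme and the closest relative of CD38, was raised in KO cultures of either state, at 1.60 ± 0.474 against 0.905 ± 0.178 CPM (0.80, edgeR adjusted p = 0.00876) and 1.70 ± 0.389 against 0.830 ± 0.138 CPM (1.03, edgeR adjusted p = 0.000502). The calcium channel gene Itpr1 rose on activation by 0.77 and 1.31, and Ryr1 fell by 0.80 in the WT lines.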

How the data were processed

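Per the labels, the 24 stranded CH12 libraries were made from ribosome-depleted total RNA. Tools named by the submitters' processing notes are kallisto 0.43.0 and DESeq2, with the build GRCm38.p5. Index and strand options were not given in the sources used. The authors deposited expected counts (kallisto's estimated counts, not whole and not normalized) for 171152 targets per library. Their TPM values were not used. The 5 genes, the gene lists and the regions were chosen with earlier results of these data known, and some regions and genes were named after their values were seen. Gene values are sums of regions wholly inside 1 RefSeq gene of GRCm38.p6; the promoter sequences are RefSeq's of the same build, and all 5 genes matched by symbol.

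Counts were rounded, targets filtered with filterByExpr, and all 24 libraries fitted with 8 group means in edgeR 4.0.16 (limma 3.58.1, R 4.3.3), scaled by the total of all targets with TMM factors. P-values were adjusted by Benjamini-Hochberg over 4510 gene values or over 61074 targets, of which 11264 are regions. SE is the log2 change divided by the root of F. The scripts were tested on simulated data. Named regions of Bach2 and Prdm1 were the 3 with the highest mean and the 3 with the smallest p in each KO comparison; list genes were called members with the smallest p, up to 4 per comparison. The cultures of a group differed beyond sampling noise (chi-square per degree of freedom 9.945 to 67.22). Alternatives were RLE factors, DESeq2 1.42.0, library sizes from gene values, no filter, a replicate block, counts summed per line, each line alone, only the libraries compared, each library left out, and, added after the values were seen, both libraries that stand apart left out.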

Additional observations from a re-analysis of the deposited data

How the results depend on the processing

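Over 962 alternative values of the 5 genes' log2 changes, 869 kept direction and side of the threshold and 55 changed sign, of which 37 were of Cd38 and 12 of Ell2, whose changes were near 0. The number of the 5 genes called in unactivated KO against WT cultures, 2 above, was 1 with cultures summed per line, 1 with KO2 alone and 1 against WT alone. In activated cultures, 3 above, it was 1 per line and 0 against WT alone. The shares of all gene values called per line or with single lines were not computed. In the interaction, 0 above, DESeq2 called 1. For the WT clone against WT unactivated, 1 above, it was 0 with DESeq2, 0 with the libraries of the comparison only and 0 without the libraries that stood apart. Leaving out 1 library gave 2 to 3 genes in unactivated and 2 to 4 in activated KO against WT, 3 for activation in each genotype, and 0 to 1 between the unactivated WT lines. Of the Bach2 and Prdm1 regions, 5 called in unactivated KO cultures became 3 without a filter, 0 per line, 3 with the libraries compared only, 1 with KO1 alone, 3 with KO2 alone, 1 against WT alone and 2 to 5 with 1 library left out. In activated cultures 2 became 0 per line, 1 with the libraries compared only, 0 with KO1 alone, 0 against WT alone and 2 to 3 with 1 library left out. Regions called apart from their gene numbered 0 to 1 (KO, unactivated; 1 without both libraries that stood apart), 2 to 3 (activation, WT) and 2 to 5 (activation, KO) with 1 library left out. For activation in each genotype, 3 above, DESeq2 and library sizes from gene values gave 4, with Ell2 added. The causes were not tested.

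Signs turned as follows. Irf4 in unactivated KO cultures was −0.0381 against WT alone. Cd38 on activation in the WT lines was −0.00555 with RLE factors, −0.20 with DESeq2, −0.000156 per line, −0.20 with library sizes from gene values, −0.11 in WT alone and −0.24 to 0.16 with 1 library left out. In the KO lines it was −0.27 with DESeq2, −0.0121 per line, −0.25 with gene-value library sizes, −0.12 in KO2 alone and −0.0619 to 0.13 with 1 left out. In the interaction Ell2 was −0.0583 (DESeq2), −0.0402 (gene-value sizes), −0.0796 (WT clone alone) and −0.0833 to 0.12 (1 left out), and Cd38 −0.0712, −0.0535, −0.0981 and −0.12 to 0.28, with −0.0120 per line, −0.13 with KO2 alone and −0.0943 without the libraries that stood apart. Between the WT lines unactivated, Cd38 was 0.000098 (RLE), 0.00985 (replicate block), 0.0573 (DESeq2), 0.0544 (gene-value sizes), 0.31 (without the libraries that stood apart) and −0.25 to 0.27 (1 left out); activated, with 1 left out, Ell2 was −0.28 to 0.15 and Cd38 −0.0565 to 0.75. Between KO2 and KO1, Irf4 with its partly overlapping region was −0.27 unactivated and 0.0377 activated; with 1 left out Prdm1 was −0.23 to 0.0410 and Irf4 −0.0851 to 0.29 unactivated, and Cd38 −0.12 to 0.27 activated. The region 39.9 kb before the Bach2 start was −0.0718 in activated KO cultures against WT alone.

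Same-numbered cultures deviated together with r from −0.43 to 0.38 (median 0.10, 42 of 84 pairs over 0.1), and other pairs from −0.47 to 0.57 (median −0.05, 17 of 168 over 0.1). The labels state no shared batch, and the main fits do not use the culture numbers, though same-numbered pairs were more often over 0.1. Whether the numbers pair the cultures was not settled, and the calls on Ell2 in KO against WT depend on it. A replicate block gave 3 called genes in unactivated and 4 in activated KO against WT; Ell2 was then called in both (0.49, edgeR adjusted p = 0.0222, and 0.54, edgeR adjusted p = 0.0104). It changed no other call of the 5 genes. A line-pair comparison has 1 sample a side per line, so no such sum was tested. The values rest on few counts, for example 0.03 CPM for 1 count.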
